A study of Homo sapiens with 5 samples.

Results

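The genes described here are 52 members of the transforming growth factor beta (TGF-beta) and bone morphogenetic protein (BMP) system: secreted ligands, the proteins that store or trap them, receptors, SMAD signal carriers and the ID target genes. They were chosen by name, with activin and Nodal genes left out, and all 52 were found among the 27139 genes listed. Of these, 51 passed the filter on low counts, as did 17634 genes in all; the exception was GDF3. Polyadenylated RNA came from cultures of H1, an established human embryonic stem cell line, labelled wild type and taken at day 30 of differentiation. In the first group (3 libraries), the cells had received a YAP inhibitor plus Activin, with a labelled treatment time of 24 h; YAP is the coactivator that the Hippo pathway restrains, and Activin is itself a ligand of the TGF-beta family. In the second group (2 libraries), called GiWi, they had received an inhibitor of GSK3 and an inhibitor of Wnt/β-catenin signalling, with a labelled time of 48 h, so protocol and treatment time differ together. The series set these protocols side by side to compare the cardiomyocyte cultures they give. All libraries come from 1 cell line and nothing in the labels says that they are separate cultures, so the spread between libraries, on which all p-values here rest, may be technical.

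TGF-beta family ligands are secreted as dimers that bring together type I and type II receptor kinases on the cell surface. The type I receptor then phosphorylates SMAD1, SMAD5 and SMAD9 after BMPs, or SMAD2 and SMAD3 after TGF-betas, and these enter the nucleus with SMAD4. SMAD6 and SMAD7 inhibit the pathway and are themselves induced by it, and ID genes are direct BMP targets. In the embryo, BMP signals help to specify cardiac mesoderm and shape the chambers, and TGF-beta is best known in the heart for driving matrix production.

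With YAPi and Activin, members of the family moved in both directions relative to GiWi, among ligands, receptors and antagonists alike. BMP6, GDF15, GDF6, TGFB1, TGFBR2, TGFBR3, BAMBI and BMPER were higher, and BMP2, BMP3, BMP10, TGFB2, TGFB3, LTBP4, GREM1, SMAD6, SMAD9, ID2 and ID3 were lower. Of the 51 members tested, 39 (76.5%) passed an adjusted p of 0.05 in edgeR's quasi-likelihood test across all genes, against a background of 57.1% of all genes tested. In YAPi with Activin libraries, 15 members were higher (29.4%, against 30.2% of all genes) and 24 were lower (47.1%, against 26.9% of all genes). The remaining 12 did not pass. The median log2 fold change was -0.28 over the members and 0.01 over all genes tested. Changes of at least 2-fold were called for 7 higher and 15 lower members, where all genes gave 15.2% and 8.14%. In 42 of the 51 members the groups did not overlap, against 75.8% of all genes. BMP8A and BMP8B passed the filter only through the YAPi with Activin libraries, where they are high, so their calls follow from how they were kept; both are in these counts. Without GiWi replicate 1 or 2, 6070 and 5909 of all genes passed, against 10065 with all libraries, and 32 and 31 members passed, against 39.

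Values below are CPM, the counts scaled by each library's total and its TMM factor, given for replicates 1, 2 and 3 of YAPi with Activin and replicates 1 and 2 of GiWi; a log2 fold change is YAPi with Activin over GiWi, so a positive value means higher with YAPi and Activin. With scaling by library size alone, under which all genes together had a median log2 fold change of -0.18, 12 members were higher and 29 lower, and higher calls made up 35.8% of the calls over all genes in place of 52.9%. In limma on log2(FPKM + 1) or log2(FPKM + 0.1), 11 were higher and 26 lower. Higher calls there made up 38.0% and 39.7% of the calls over all genes, so all genes tilted to lower calls too. Where a call depended on the processing, the values that ended it are given with the span of adjusted p over the alternatives. That span leaves out the fit with the replicate number as a block. Without YAPi replicate 3, 74.9% of all genes passed, against 57.1% with all libraries, so calls gained that way came with a general rise. That fit keeps YAPi replicates 1 and 2, the most alike of the pairs within a group.

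**Figure D1:**
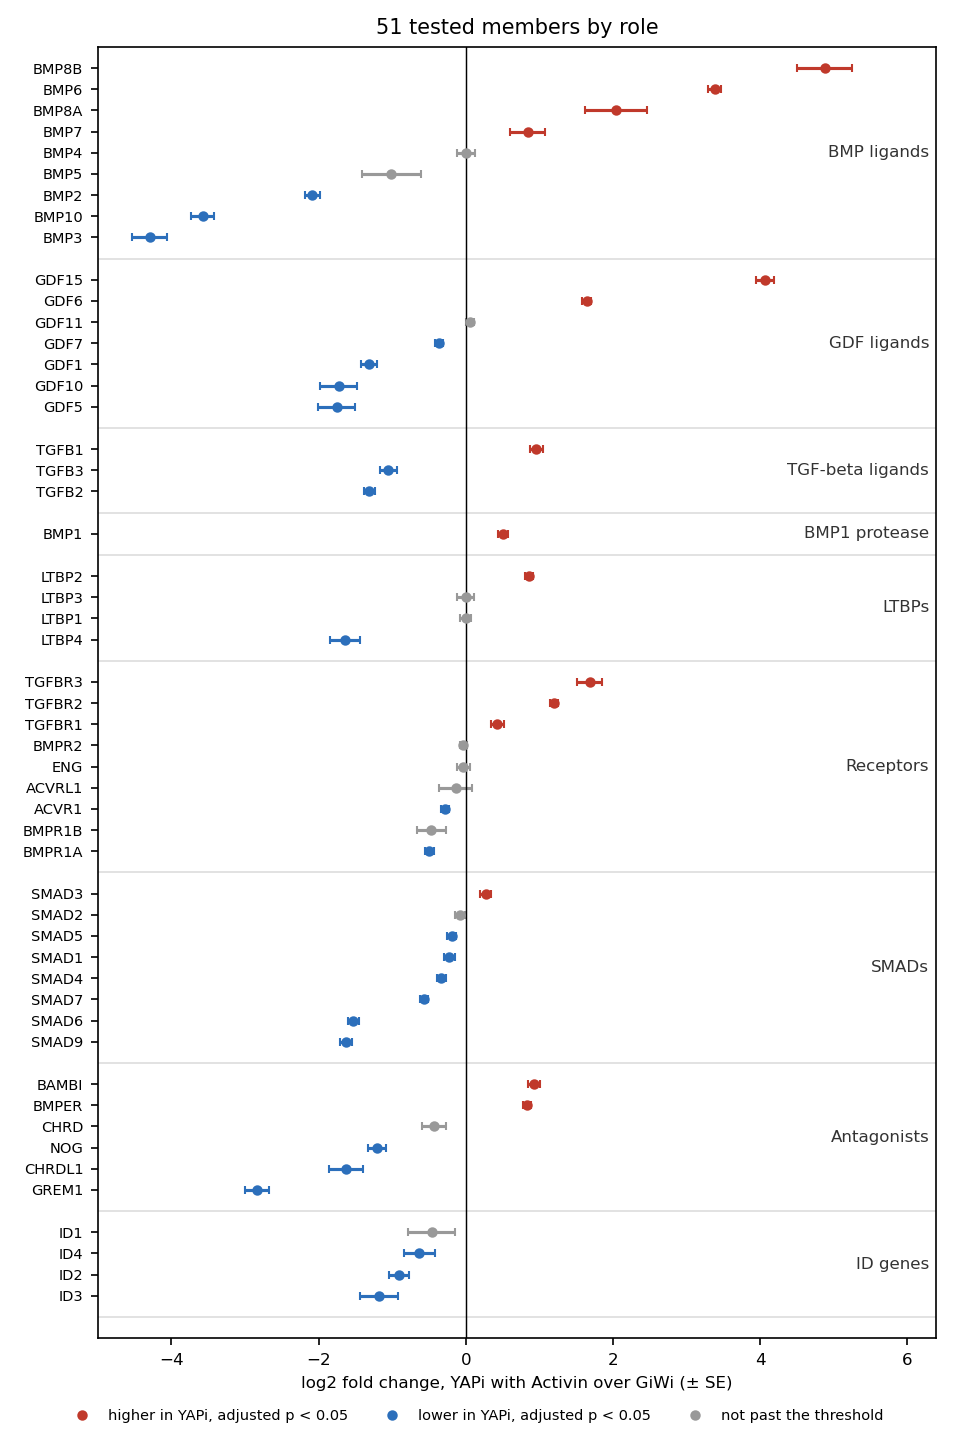
Log2 fold change of YAPi with Activin over GiWi (x axis, bars are ± SE from edgeR) for the 51 tested members, grouped by role down the page. Red points were higher and blue points lower at an adjusted p under 0.05, and grey points did not pass; the 3 TGFBR genes lie to the right of 0, and the ID genes and all SMADs but SMAD3 to the left.

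Markers of several cell types were present and differed between the groups. Summed over the 11 cardiomyocyte markers, the libraries held 1924 to 4516 CPM with YAPi and Activin and 5729 to 5812 CPM in GiWi, so heart muscle transcripts were present in every library; MYH7 rose, MYH6 and RYR2 fell and the other 8 did not pass. The sums were 216 to 406 CPM with YAPi and Activin and 1151 to 1194 CPM in GiWi for 6 epicardial markers, of which 5 fell. They were 238 to 552 CPM with YAPi and Activin and 4.33 to 4.64 CPM in GiWi for 10 macrophage markers, with 3 (CD163, C1QB and TYROBP) at 0 counts in both GiWi libraries. Of these 10, all but CD68 reached the filter on low counts through the YAPi with Activin libraries alone, so that their being called higher was fixed by the filter; the same holds for 6 of the 8 neural and eye markers and for CDX2 among the liver and gut markers. For 7 fibroblast and stromal markers (5 rose, 2 fell) the sums were 106230.0 to 126980.0 CPM with YAPi and Activin and 59612 to 59902 CPM in GiWi, and for 6 epithelial markers (all 6 rose) 3051 to 3509.9 CPM with YAPi and Activin and 1859 to 2046 CPM in GiWi. For 8 endothelial markers (4 rose, 3 fell) they were 355 to 442 CPM with YAPi and Activin and 292 to 301 CPM in GiWi, and for 5 smooth muscle markers (2 rose, 3 fell) 1937 to 2268 CPM with YAPi and Activin and 1649.6 to 1746 CPM in GiWi. For 8 neural and eye markers (7 called higher, 1 lower) they were 157 to 176 CPM with YAPi and Activin and 62.5 to 63.0 CPM in GiWi, and for 6 liver and gut markers (5 called higher, 1 lower) 786 to 798 CPM with YAPi and Activin and 568 to 596 CPM in GiWi. The part of these cells in the results below was not tested. In bulk RNA, fewer cells of a type and less RNA per cell cannot be told apart. YAPi replicate 3 stood apart from replicates 1 and 2: its cardiomyocyte markers lay at a median log2 of -1.22 and its epicardial markers at 0.87 relative to their mean, against -0.0037 for all genes. Exon counts per library ranged from 43661188 to 48904302.

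Among the BMP ligands, BMP6 was higher and BMP2, BMP3 and BMP10 were lower with YAPi and Activin. BMP6, best known for setting iron balance through hepcidin, measured 124, 127 and 111 CPM in YAPi with Activin libraries, against 11.3 and 11.7 CPM in GiWi libraries (log2 fold change 3.38 ± 0.09 SE, edgeR adjusted p = 2.20e-05). BMP2, which helps to specify cardiac mesoderm and the atrioventricular canal, measured 10.8, 11.8 and 9.30 CPM in YAPi with Activin libraries, against 45.2 and 45.1 CPM in GiWi libraries (log2 fold change -2.09 ± 0.10 SE, edgeR adjusted p = 8.68e-05). The groups lay far apart for both genes, and all 3 YAPi with Activin libraries were close together. BMP10, a ligand of trabecular and atrial heart muscle, measured 0.616, 0.564 and 0.495 CPM in YAPi with Activin libraries, against 6.76 and 6.65 CPM in GiWi libraries (log2 fold change -3.58 ± 0.16 SE, edgeR adjusted p = 6.16e-05). BMP3, an atypical member that opposes BMP signals, measured 1.08, 1.46 and 2.08 CPM in YAPi with Activin libraries, against 32.1 and 28.1 CPM in GiWi libraries (log2 fold change -4.30 ± 0.24 SE, edgeR adjusted p = 0.000123). BMP3 and BMP10 were thus close to the low end of detection with YAPi and Activin, and BMP10 was low in GiWi too. In hg19, BMP6 spans chr6:7726332-7881961, BMP2 chr20:6748745-6760925, BMP3 chr4:81952119-81978779 and BMP10 chr2:69088048-69098649.

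BMP4, the most abundant of these ligands per length in both groups, overlapped between the groups. It measured 64.9, 66.7 and 84.6 CPM in YAPi with Activin libraries, against 70.5 and 73.4 CPM in GiWi libraries (log2 fold change 0.00175 ± 0.13 SE, edgeR adjusted p = 0.992). Replicate 3 was the highest of all 5 libraries; without it BMP4 was slightly lower with YAPi and Activin (log2 fold change -0.13, edgeR adjusted p = 0.0242; span 0.0242 to 0.983). BMP5, a close relative of BMP6 and BMP7, measured 40.2, 40.1 and 15.5 CPM in YAPi with Activin libraries, against 67.6 and 61.0 CPM in GiWi libraries (log2 fold change -1.01 ± 0.40 SE, edgeR adjusted p = 0.0740). The groups did not overlap, but replicate 3 stood well below replicates 1 and 2, and without it BMP5 passed (log2 fold change -0.68, edgeR adjusted p = 9.54e-10). The fit without replicate 3 called 74.9% of all genes. BMP5 was also called under scaling by library size alone (edgeR adjusted p = 0.0479) and in limma on both FPKM scales (adjusted p = 0.0487 and 0.0486); the span was 9.54e-10 to 0.247. BMP7 measured 49.9, 51.5 and 30.5 CPM in YAPi with Activin libraries, against 24.7 and 24.4 CPM in GiWi libraries (log2 fold change 0.84 ± 0.24 SE, edgeR adjusted p = 0.0261). Its groups did not overlap, and replicate 3 lay between the other YAPi with Activin libraries and GiWi. The BMP7 call was lost in 7 of 13 alternatives, among them the loss of any library but YAPi replicate 3 (edgeR adjusted p = 0.0655, 0.0655, 0.130 and 0.138), scaling by library size alone (0.0652) and limma on both FPKM scales (adjusted p = 0.0692 and 0.0589); the span was 4.41e-13 to 0.138.

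The near-identical pair BMP8A and BMP8B could share reads, so their values are uncertain one by one. BMP8B had 265 counts over the YAPi with Activin libraries and 7 over the GiWi libraries, a ratio of 30.7 after scaling with an exact 95% counting interval of 14.7 to 77.0. BMP8A had 52 and 10 counts, a ratio of 4.21 with an interval of 2.12 to 9.30. GDF3, a ligand of pluripotent cells, had 12 counts over the YAPi with Activin libraries and 1 over the GiWi libraries. The ratio was 9.72, with an interval of 1.44 to 416. By library, GDF3 had 4, 7 and 1 counts with YAPi and Activin and 0 and 1 in GiWi. Such intervals pool the reads of each group, cover counting error only and are no test between the groups. BMP8A and BMP8B also passed the filter only through the libraries where they are high. All 3 genes were at the low end of detection. The BMP8A call was lost without GiWi replicate 2 (edgeR adjusted p = 0.0694) and in limma on both FPKM scales (adjusted p = 0.144 and 0.0534), with a span of 0.000322 to 0.144.

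GDF15 and GDF6 were the growth and differentiation factors that rose with YAPi and Activin, while 4 others fell. Of the 7 tested, 28.6% were thus higher, near the 30.2% of all genes, and 57.1% lower, against 26.9% of all genes. GDF15, a stress-induced hormone and distant member of the family, measured 27.5, 27.1 and 23.4 CPM in YAPi with Activin libraries, against 1.57 and 1.53 CPM in GiWi libraries (log2 fold change 4.07 ± 0.12 SE, edgeR adjusted p = 2.29e-05). GDF6, a ligand of skeletal joint and eye development, measured 133, 136 and 130.4 CPM in YAPi with Activin libraries, against 41.4 and 43.9 CPM in GiWi libraries (log2 fold change 1.64 ± 0.06 SE, edgeR adjusted p = 3.77e-05). In both genes the libraries within a group were close and the groups were far apart. GDF5, a joint ligand, measured 2.15, 1.72 and 3.12 CPM in YAPi with Activin libraries, against 7.52 and 8.14 CPM in GiWi libraries (log2 fold change -1.75 ± 0.25 SE, edgeR adjusted p = 0.00250). GDF10, the closest relative of BMP3, measured 5.48, 4.80 and 2.92 CPM in YAPi with Activin libraries, against 14.4 and 14.8 CPM in GiWi libraries (log2 fold change -1.73 ± 0.25 SE, edgeR adjusted p = 0.00259). GDF7 measured 33.0, 31.5 and 33.5 CPM in YAPi with Activin libraries, against 42.9 and 41.2 CPM in GiWi libraries (log2 fold change -0.36 ± 0.06 SE, edgeR adjusted p = 0.00347). The change in GDF7, a ligand of the dorsal neural tube, was much smaller than that in GDF5 and GDF10, though its groups did not overlap either. GDF1, a partner of Nodal in left-right patterning, measured 3.78, 4.00 and 4.01 CPM in YAPi with Activin libraries, against 9.22 and 10.3 CPM in GiWi libraries (log2 fold change -1.31 ± 0.10 SE, edgeR adjusted p = 0.000346). GDF1 shares its span with CERS1 on the same strand (log2 fold change -1.14 for CERS1), so reads of the pair cannot be told apart. GDF11 measured 29.7, 29.7 and 28.2 CPM in YAPi with Activin libraries, against 27.5 and 28.5 CPM in GiWi libraries and did not pass (log2 fold change 0.06 ± 0.06 SE, edgeR adjusted p = 0.399). In hg19, GDF15 spans chr19:18496770-18499987.

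The TGF-beta ligands proper split, with TGFB1 higher and TGFB2 and TGFB3 lower. TGFB1, the main TGF-beta of blood cells and fibroblasts, measured 123, 130.0 and 129.9 CPM in YAPi with Activin libraries, against 60.0 and 71.1 CPM in GiWi libraries (log2 fold change 0.96 ± 0.09 SE, edgeR adjusted p = 0.000562). TGFB2, needed for heart valve and septum development in mice, measured 32.2, 33.0 and 37.3 CPM in YAPi with Activin libraries, against 85.4 and 83.8 CPM in GiWi libraries (log2 fold change -1.31 ± 0.08 SE, edgeR adjusted p = 0.000150). TGFB3 measured 32.6, 34.0 and 42.3 CPM in YAPi with Activin libraries, against 75.7 and 74.6 CPM in GiWi libraries (log2 fold change -1.05 ± 0.12 SE, edgeR adjusted p = 0.00110). All 3 genes held their calls in each of the 13 alternatives, and the groups did not overlap in any of them. Per length, TGFB1 reached 36.9 ± 1.02 FPKM in YAPi with Activin and 20.9 ± 1.99 FPKM in GiWi, TGFB2 4.55 ± 0.351 FPKM in YAPi with Activin and 12.5 ± 0.478 FPKM in GiWi and TGFB3 8.24 ± 1.17 FPKM in YAPi with Activin and 18.9 ± 0.667 FPKM in GiWi (SD, n = 3 and 2). TGFB1 thus made up 75.3, 75.6 and 72.0% in YAPi with Activin libraries and 37.8 and 42.2% in GiWi libraries of the FPKM summed over the 3 ligands. TGFB3 made up 16.5 ± 1.63% in YAPi with Activin and 36.1 ± 1.86% in GiWi and TGFB2 9.16 ± 0.344% in YAPi with Activin and 23.9 ± 1.30% in GiWi.

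**Figure D2:**
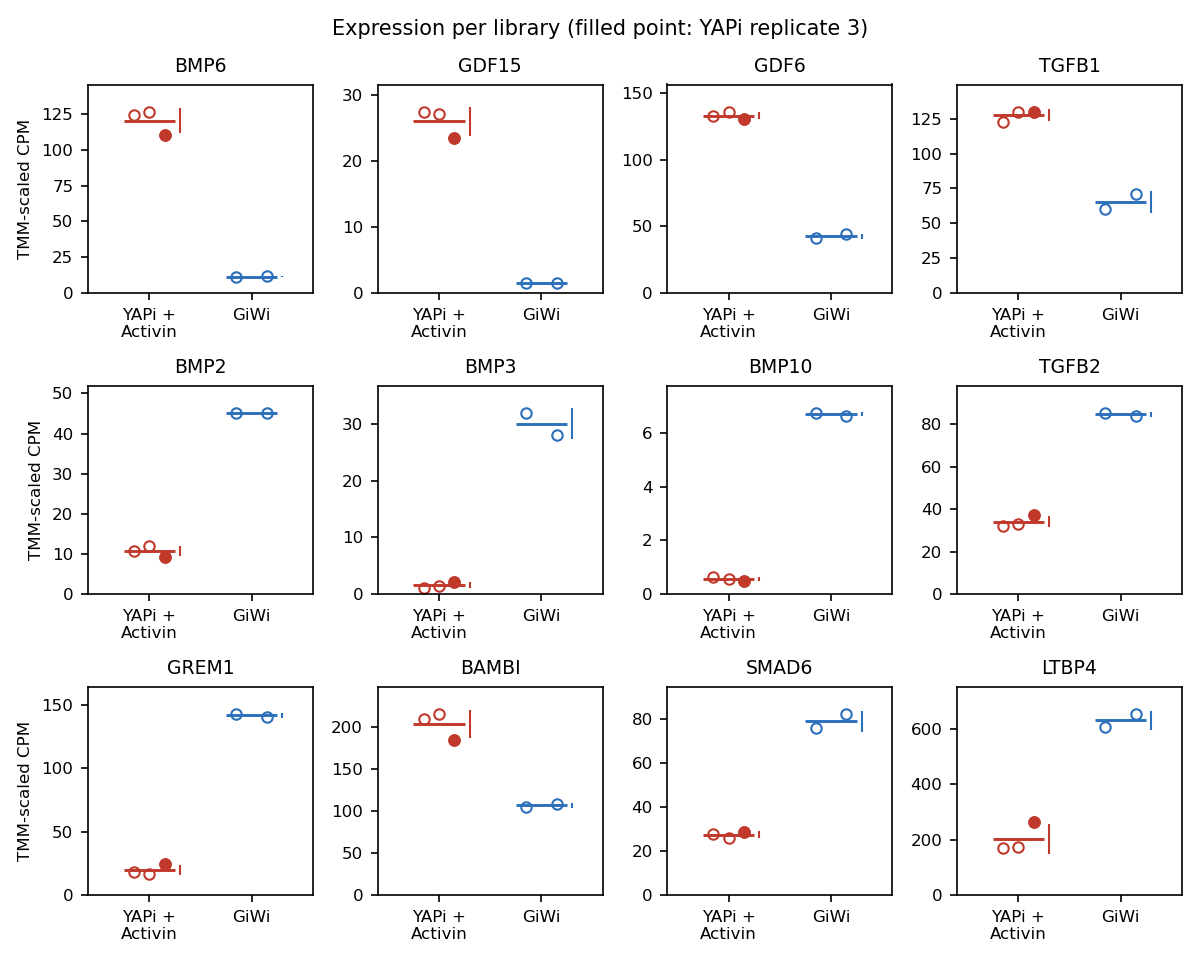
TMM-scaled CPM (y axes, each from 0) of 12 members in the 3 libraries of YAPi with Activin (red, left) and the 2 of GiWi (blue, right); horizontal lines are means, vertical bars ± SD, and the filled point is YAPi replicate 3. In all 12 genes every library of one group lies above every library of the other. The 12 were picked from called members, and the groups did not overlap in 75.8% of all genes tested.

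Ligand composition was set side by side per length, as the share of FPKM within a subfamily. Of the FPKM of BMP2, BMP4, BMP5, BMP6 and BMP7, BMP6 took 34.3, 34.1 and 32.0% in YAPi with Activin libraries and 3.73 and 3.85% in GiWi libraries. BMP2 took 3.55, 3.81 and 3.21% in YAPi with Activin libraries and 17.8 and 17.7% in GiWi libraries. BMP4 was the largest share in every library, at 38.6, 38.9 and 52.2% in YAPi with Activin libraries and 49.7 and 51.9% in GiWi libraries, and its shares overlapped between the groups (exact two-sided permutation p = 0.400). The BMP4 share of BMP ligands differed by -7.57 percentage points (YAPi with Activin minus GiWi), and by -12.1 without YAPi replicate 3, when the shares no longer overlapped. BMP5 took 8.38 ± 3.55% in YAPi with Activin and 20.1 ± 1.50% in GiWi, and BMP7 11.4 ± 2.72% in YAPi with Activin and 7.56 ± 0.0709% in GiWi. With 3 libraries against 2 there are 10 splits, so no exact two-sided permutation test can go below p = 0.1. Of 23 shares compared in 6 subfamilies, 15 reached that floor, at 0.153 after Benjamini-Hochberg adjustment, and BMP6, BMP2, TGFB1, TGFB2 and TGFB3 were among them.

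**Figure D3:**
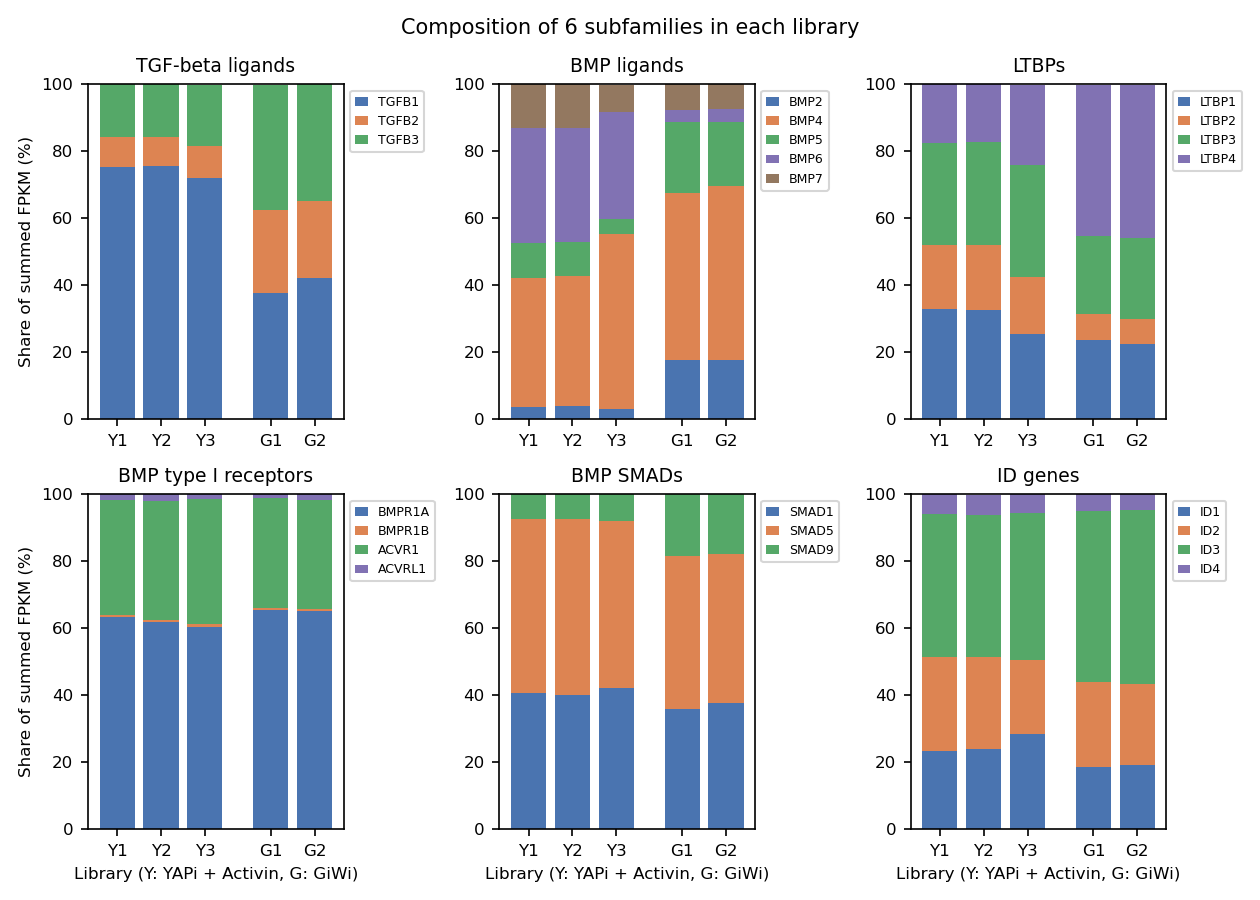
Share of summed FPKM (y axis, %) that each gene took within 6 subfamilies, in the 3 YAPi with Activin libraries (Y1 to Y3, left) and the 2 GiWi libraries (G1 and G2, right). TGFB1, BMP6 and LTBP2 took a larger share, and BMP2, LTBP4 and SMAD9 a smaller one, in all 3 YAPi with Activin libraries than in either GiWi library.

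Among the proteins that process and store the ligands, LTBP4 fell and LTBP2 and BMP1 rose. Latent TGF-beta binding proteins (LTBPs) hold secreted TGF-beta inactive in the matrix; LTBP2 does not bind latent TGF-beta and sits on fibrillin fibres, and LTBP4 also guides elastic fibre assembly. LTBP4 measured 169, 172 and 265 CPM in YAPi with Activin libraries, against 608 and 655 CPM in GiWi libraries (log2 fold change -1.64 ± 0.21 SE, edgeR adjusted p = 0.00164). Replicate 3 was the highest of its group and still far below GiWi. LTBP2 measured 325, 336 and 327 CPM in YAPi with Activin libraries, against 178 and 186 CPM in GiWi libraries (log2 fold change 0.86 ± 0.05 SE, edgeR adjusted p = 0.000169). LTBP1 measured 369, 374 and 325 CPM in YAPi with Activin libraries, against 355 and 358 CPM in GiWi libraries (log2 fold change -0.00213 ± 0.08 SE, edgeR adjusted p = 0.983). LTBP3 measured 279, 288 and 351 CPM in YAPi with Activin libraries, against 291 and 320.3 CPM in GiWi libraries (log2 fold change 0.00102 ± 0.12 SE, edgeR adjusted p = 0.995). The groups overlapped in LTBP1 and LTBP3, and neither passed. Per length, LTBP4 led in GiWi at 111 ± 3.29 FPKM, while LTBP3 (52.4 ± 6.65 FPKM) and LTBP1 (50.1 ± 3.73 FPKM) had the highest means with YAPi and Activin and did not differ beyond their spread. The LTBP4 share of the 4 LTBPs was 19.5 ± 3.75% in YAPi with Activin and 45.6 ± 0.416% in GiWi. BMP1, which despite its name is a protease that trims procollagen and cleaves chordin, measured 172, 180.2 and 191 CPM in YAPi with Activin libraries, against 122 and 132 CPM in GiWi libraries (log2 fold change 0.51 ± 0.07 SE, edgeR adjusted p = 0.00203).

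The 3 TGFBR genes rose with YAPi and Activin, BMPR1A and ACVR1 fell slightly, and 4 of the 9 receptors did not pass. The 55.6% of receptors called were near the 57.1% of all genes. Higher calls made up 33.3%, against 30.2% of all genes, and lower calls 22.2%, against 26.9%. TGFBR2, the type II receptor that binds TGF-beta first, measured 145, 142 and 138 CPM in YAPi with Activin libraries, against 62.4 and 61.2 CPM in GiWi libraries (log2 fold change 1.20 ± 0.05 SE, edgeR adjusted p = 6.56e-05). TGFBR3, the co-receptor betaglycan that presents TGFB2, measured 85.6, 85.8 and 62.7 CPM in YAPi with Activin libraries, against 26.3 and 22.3 CPM in GiWi libraries (log2 fold change 1.68 ± 0.17 SE, edgeR adjusted p = 0.000791). In both genes every YAPi with Activin library exceeded both GiWi libraries by more than the spread within groups. TGFBR1, the type I partner, measured 82.1, 86.9 and 75.0 CPM in YAPi with Activin libraries, against 64.0 and 56.9 CPM in GiWi libraries (log2 fold change 0.43 ± 0.09 SE, edgeR adjusted p = 0.00973). Its call was lost without GiWi replicate 2 (edgeR adjusted p = 0.0840), with scaling by library size alone (0.0930) and in limma on both FPKM scales (adjusted p = 0.0567 and 0.0512), with a span of 1.67e-07 to 0.0930.

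Of the BMP receptors, BMPR1A, the main type I receptor of BMP2 and BMP4, measured 61.0, 59.3 and 55.3 CPM in YAPi with Activin libraries, against 85.00 and 79.8 CPM in GiWi libraries (log2 fold change -0.49 ± 0.07 SE, edgeR adjusted p = 0.00199). ACVR1, a type I receptor of BMP6 and BMP7, measured 26.4, 27.2 and 27.3 CPM in YAPi with Activin libraries, against 33.8 and 31.8 CPM in GiWi libraries (log2 fold change -0.28 ± 0.06 SE, edgeR adjusted p = 0.00862). Both fell by well under 2-fold, and the ACVR1 call was lost without GiWi replicate 1 (edgeR adjusted p = 0.0708; span 0.000186 to 0.0708). BMPR2, the BMP type II receptor, measured 137, 141 and 141 CPM in YAPi with Activin libraries, against 146 and 139 CPM in GiWi libraries and did not pass (log2 fold change -0.03 ± 0.05 SE, edgeR adjusted p = 0.616); it passed as lower with scaling by library size alone (edgeR adjusted p = 0.0127). BMPR1B, ACVRL1 and ENG did not pass either. BMPR1B measured 0.808, 0.823 and 0.989 CPM in YAPi with Activin libraries, against 1.23 and 1.18 CPM in GiWi libraries (log2 fold change -0.47 ± 0.20 SE, edgeR adjusted p = 0.0988). It passed without YAPi replicate 3 (edgeR adjusted p = 0.0180) and with scaling by library size alone (0.0313), with a span of 0.0180 to 0.313. ACVRL1, the type I receptor of blood vessel lining, measured 1.87, 2.12 and 1.46 CPM in YAPi with Activin libraries, against 1.79 and 2.20 CPM in GiWi libraries (log2 fold change -0.14 ± 0.22 SE). Its partner ENG, endoglin, measured 32.2, 34.9 and 29.0 CPM in YAPi with Activin libraries, against 32.3 and 33.3 CPM in GiWi libraries (log2 fold change -0.03 ± 0.09 SE). The groups overlapped in ACVRL1 and ENG. Per length, BMPR1A exceeded ACVR1 in every library, and ACVRL1 and BMPR1B were below 0.5 FPKM in all of them.

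Of the 8 SMADs, 6 fell with YAPi and Activin (the 3 of the BMP branch, both inhibitory SMADs and SMAD4), SMAD3 rose and SMAD2 did not pass. The 6 made up 75.0% of the SMADs, against 26.9% of all genes called lower, and the calls of SMAD1 and SMAD5 depended on the setting. SMAD9, the least abundant of the BMP-activated SMADs, measured 8.20, 8.06 and 9.10 CPM in YAPi with Activin libraries, against 27.3 and 24.9 CPM in GiWi libraries (log2 fold change -1.63 ± 0.09 SE, edgeR adjusted p = 0.000110). SMAD6, which blocks mainly BMP receptors, measured 27.8, 25.7 and 28.6 CPM in YAPi with Activin libraries, against 75.6 and 82.3 CPM in GiWi libraries (log2 fold change -1.53 ± 0.07 SE, edgeR adjusted p = 7.41e-05). SMAD7, which blocks both branches, measured 28.0, 27.9 and 28.8 CPM in YAPi with Activin libraries, against 40.7 and 42.6 CPM in GiWi libraries (log2 fold change -0.56 ± 0.05 SE, edgeR adjusted p = 0.000653). For these 3 genes the YAPi with Activin libraries, replicate 3 included, were tightly grouped below both GiWi libraries, and the calls held in each of the 13 alternatives. SMAD4, the shared partner, measured 48.0, 46.6 and 50.2 CPM in YAPi with Activin libraries, against 61.5 and 59.9 CPM in GiWi libraries (log2 fold change -0.33 ± 0.06 SE, edgeR adjusted p = 0.00508), a small shift whose call also held throughout. SMAD1, a BMP-activated SMAD, measured 23.2, 22.7 and 25.9 CPM in YAPi with Activin libraries, against 27.9 and 28.0 CPM in GiWi libraries (log2 fold change -0.22 ± 0.07 SE, edgeR adjusted p = 0.0479). Its close relative SMAD5 measured 69.9, 70.5 and 72.0 CPM in YAPi with Activin libraries, against 83.8 and 77.9 CPM in GiWi libraries (log2 fold change -0.19 ± 0.06 SE, edgeR adjusted p = 0.0321). In both the groups were separate but near each other, and the adjusted p was near the threshold.

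The small SMAD shifts depended on the setting. The SMAD1 call was lost in 7 of 13 alternatives, with a span of 0.000232 to 0.180: without YAPi replicate 1 or 2 or GiWi replicate 1 or 2 (edgeR adjusted p = 0.148, 0.150, 0.168 and 0.180), with no filter (0.0516), with the stricter filter (0.0525) and in DESeq2 (adjusted p = 0.0549). The SMAD5 call was lost without each of the same 4 libraries (edgeR adjusted p = 0.122, 0.116, 0.191 and 0.0630; span 0.00122 to 0.191). SMAD3, a TGF-beta activated SMAD, measured 84.7, 86.5 and 95.1 CPM in YAPi with Activin libraries, against 70.3 and 76.6 CPM in GiWi libraries (log2 fold change 0.27 ± 0.08 SE, edgeR adjusted p = 0.0265). It was the one SMAD called higher, and its call was lost without YAPi replicate 2 or either GiWi library (edgeR adjusted p = 0.0603, 0.175 and 0.0703), with scaling by library size alone (0.297) and in limma on both FPKM scales (adjusted p = 0.177 and 0.176), with a span of 0.000516 to 0.297. SMAD2 measured 44.0, 45.5 and 41.4 CPM in YAPi with Activin libraries, against 48.1 and 44.0 CPM in GiWi libraries and did not pass (log2 fold change -0.08 ± 0.07 SE, edgeR adjusted p = 0.384); with scaling by library size alone it passed as lower (edgeR adjusted p = 0.0326). SMAD9 took 7.64 ± 0.198% in YAPi with Activin and 18.1 ± 0.595% in GiWi of the FPKM of SMAD1, SMAD5 and SMAD9.

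The 4 ID genes encode inhibitors of basic helix-loop-helix transcription factors and are a standard readout of BMP signalling. Of these, 3 fell with YAPi and Activin (75.0%, against 26.9% of all genes), and replicate 3 lay apart from replicates 1 and 2. ID3 measured 76.9, 76.7 and 133 CPM in YAPi with Activin libraries, against 209.7 and 222 CPM in GiWi libraries (log2 fold change -1.18 ± 0.25 SE, edgeR adjusted p = 0.0109). ID2 measured 55.8, 54.3 and 73.2 CPM in YAPi with Activin libraries, against 115 and 114 CPM in GiWi libraries (log2 fold change -0.91 ± 0.14 SE, edgeR adjusted p = 0.00301). ID4 measured 33.9, 33.9 and 53.0 CPM in YAPi with Activin libraries, against 63.2 and 61.7 CPM in GiWi libraries (log2 fold change -0.63 ± 0.21 SE, edgeR adjusted p = 0.0448). In these 3 genes the groups did not overlap, and replicate 3 was the highest of its group each time. ID1 measured 35.3, 36.2 and 70.5 CPM in YAPi with Activin libraries, against 62.9 and 67.6 CPM in GiWi libraries and did not pass (log2 fold change -0.46 ± 0.32 SE, edgeR adjusted p = 0.257); replicate 3 exceeded both GiWi libraries. Without replicate 3, ID1 passed as lower (log2 fold change -0.87, edgeR adjusted p = 7.67e-12; span 7.67e-12 to 0.511). That fit called 74.9% of all genes. Leaving out GiWi replicate 1 or 2 ended the ID3 call (edgeR adjusted p = 0.0600 and 0.0721; span 1.02e-16 to 0.0721). The ID4 call was lost without any one library but YAPi replicate 3 (edgeR adjusted p = 0.112, 0.113, 0.171 and 0.157; span 3.34e-12 to 0.171). Per length, ID3 was the most abundant ID gene in every library, at 61.1 ± 20.4 FPKM in YAPi with Activin and 152 ± 2.47 FPKM in GiWi, and ID4 the least, at 8.22 ± 2.22 FPKM in YAPi with Activin and 14.1 ± 0.581 FPKM in GiWi.

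Promoter sequences are shown for SMAD6, ID3 and ID4, target genes that fell, and for GDF15, a ligand that rose, because SMAD proteins bind short DNA motifs. They come from RefSeq (GRCh38.p14) and cover 250 bases before to 50 bases after the start of transcription, 5′ to 3′ on the gene's strand. Capitals mark matches, on either strand, to the SMAD palindrome GTCTAGAC or to the short SMAD motif CAGAC; the GC-rich motif GGCGCC was searched too and is in none of the 4. None of these motifs contains another. SMAD6 is at chr15:66701986-66702285, plus strand, ID3 at chr1:23559452-23559751, minus strand, ID4 at chr6:19837120-19837419, plus strand and GDF15 at chr19:18385908-18386207, plus strand.
SMAD6: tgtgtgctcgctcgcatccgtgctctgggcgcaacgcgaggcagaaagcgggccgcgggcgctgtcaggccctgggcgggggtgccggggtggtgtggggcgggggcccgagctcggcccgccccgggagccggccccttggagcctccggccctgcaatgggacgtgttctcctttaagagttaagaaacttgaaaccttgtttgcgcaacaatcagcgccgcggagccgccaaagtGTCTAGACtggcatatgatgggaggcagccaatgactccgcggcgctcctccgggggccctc
ID3: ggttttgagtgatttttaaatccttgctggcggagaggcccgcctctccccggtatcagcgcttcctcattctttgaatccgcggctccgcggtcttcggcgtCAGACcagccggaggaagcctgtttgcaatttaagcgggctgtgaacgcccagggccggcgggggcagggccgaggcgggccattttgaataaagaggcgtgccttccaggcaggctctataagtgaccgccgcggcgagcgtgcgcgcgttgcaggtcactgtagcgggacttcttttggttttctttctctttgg
ID4: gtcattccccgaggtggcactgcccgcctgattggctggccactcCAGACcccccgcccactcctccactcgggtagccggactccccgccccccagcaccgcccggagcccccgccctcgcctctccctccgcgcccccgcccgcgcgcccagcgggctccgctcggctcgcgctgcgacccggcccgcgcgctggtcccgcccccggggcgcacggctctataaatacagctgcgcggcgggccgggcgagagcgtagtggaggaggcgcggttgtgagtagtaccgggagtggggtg
GDF15: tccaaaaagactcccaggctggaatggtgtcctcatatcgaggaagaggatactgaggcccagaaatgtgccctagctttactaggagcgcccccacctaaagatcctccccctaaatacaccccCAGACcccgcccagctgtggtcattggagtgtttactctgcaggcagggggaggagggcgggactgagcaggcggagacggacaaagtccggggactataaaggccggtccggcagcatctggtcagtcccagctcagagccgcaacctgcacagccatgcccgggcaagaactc

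The SMAD6 window holds GTCTAGAC, starting 12 bases before the start of transcription. That motif occurs in 0.202% of all 35116 promoter windows of the same length, and among the 77 windows of the 45 members that matched a RefSeq entry, SMAD6 has the only one. CAGAC starts 147 bases before the start in ID3, 205 in ID4 and 125 in GDF15. It is in 45.3% of all windows and 46.8% of those of members, so its presence sets none of these genes apart, and it is found both in genes that fell and in one that rose. GGCGCC is in 19.2% of all windows and 27.3% of those of members. Each window shown holds a match, but those of ID2, which also fell, and of BMP6 and TGFB1, which rose, hold none of these motifs. A match describes these letters and does not show binding.

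Of the 6 antagonists, GREM1, NOG and CHRDL1 fell, CHRD did not pass, and BMPER and the receptor-like BAMBI rose. The 2 higher calls made up 33.3% of the antagonists, near the 30.2% of all genes. Lower calls were 3 of the 6, against 26.9% of all genes. GREM1, a secreted trap of BMP2 and BMP4, measured 18.2, 16.8 and 24.5 CPM in YAPi with Activin libraries, against 143 and 140.3 CPM in GiWi libraries (log2 fold change -2.84 ± 0.16 SE, edgeR adjusted p = 0.000134). It had the largest change among the 6 antagonists, and its lowest GiWi library lay well above the highest YAPi with Activin library. NOG, noggin, measured 3.46, 4.25 and 4.03 CPM in YAPi with Activin libraries, against 8.99 and 9.01 CPM in GiWi libraries (log2 fold change -1.20 ± 0.12 SE, edgeR adjusted p = 0.000781). CHRDL1, a chordin-like BMP trap, measured 1.30, 1.32 and 1.98 CPM in YAPi with Activin libraries, against 5.00 and 4.46 CPM in GiWi libraries (log2 fold change -1.63 ± 0.23 SE, edgeR adjusted p = 0.00229). Both were lower in every YAPi with Activin library. CHRD, chordin, measured 2.51, 2.37 and 2.13 CPM in YAPi with Activin libraries, against 3.40 and 2.90 CPM in GiWi libraries and did not pass (log2 fold change -0.43 ± 0.16 SE, edgeR adjusted p = 0.0647). It passed without YAPi replicate 3 (edgeR adjusted p = 0.0199), with scaling by library size alone (0.0234) and in limma on both FPKM scales (adjusted p = 0.0215 and 0.0277), with a span of 0.0199 to 0.318. BMPER, which can either restrain or aid BMPs, measured 126, 127 and 125 CPM in YAPi with Activin libraries, against 72.3 and 69.3 CPM in GiWi libraries (log2 fold change 0.83 ± 0.05 SE, edgeR adjusted p = 0.000170). BAMBI, a receptor-like decoy without a kinase domain, measured 209.9, 216 and 185 CPM in YAPi with Activin libraries, against 105 and 109 CPM in GiWi libraries (log2 fold change 0.93 ± 0.08 SE, edgeR adjusted p = 0.000532). BMPER and BAMBI were higher in all 3 YAPi with Activin libraries and held their calls in each of the 13 alternatives. Per length, BAMBI was the most abundant of the 6 antagonists in every library, at 93.7 ± 7.78 FPKM in YAPi with Activin and 54.2 ± 0.0983 FPKM in GiWi. GREM1 came next in GiWi, at 3.79 ± 0.777 FPKM in YAPi with Activin and 29.9 ± 1.14 FPKM in GiWi. In hg19, GREM1 spans chr15:33010205-33026870.

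Replicate 3 of YAPi with Activin departed from replicates 1 and 2 in some members more than in others. Over the 51 tested members, its log2 difference from their mean had a median of 0.04, with 23 members below 0 and 28 above. BMP5 (-1.37), GDF10 (-0.82) and BMP7 (-0.74) were lowest there. ID1 (0.98), ID3 (0.79), BMP3 (0.71) and GDF5 (0.69) were highest, and all 4 ID genes lay above 0. So did 7 of the 8 SMADs and all 3 TGF-beta ligands, while 7 of 9 BMP ligands and 6 of 9 receptors lay below 0. Over all genes, 8693 lay above 0 and 8901 below. The sum of the 6 epicardial markers was 406 CPM in that library, against 216 and 223 CPM in replicates 1 and 2, and that of the 11 cardiomyocyte markers 1924 against 4446 and 4516 CPM; the part of either in these differences was not tested. Without replicate 3, 15 members were higher and 29 lower, and 74.9% of all genes passed.

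**Figure D4:**
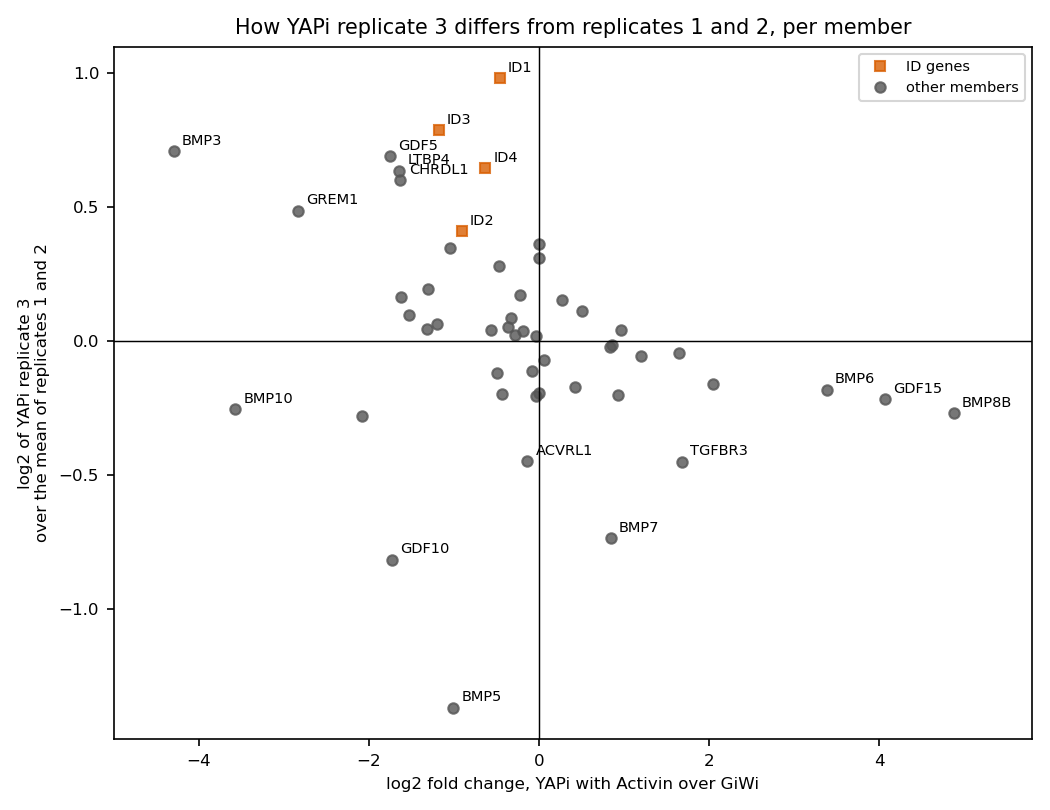
Log2 fold change of YAPi with Activin over GiWi (x axis) against the log2 of YAPi replicate 3 over the mean of replicates 1 and 2 (y axis), one point per tested member, with the ID genes as orange squares. The axes share the YAPi with Activin libraries; the 4 ID genes lie between 0.41 and 0.98 on the y axis and BMP5 lies lowest at -1.37.

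Other genes of the pathways were read from lists of known regulators and targets. Of 25 tested extracellular regulators, 12 were called higher (48.0%, against 30.2% of all genes), 8 lower (32.0%, near the 26.9% of all genes) and 5 did not pass, with a median log2 fold change of 0.18. Of those called, ITGB6 (higher) and GDF2 (lower) reached the filter in 1 group alone, the one where they are high. CHRDL2, a relative of CHRDL1, measured 157, 155 and 173 CPM in YAPi with Activin libraries, against 5.15 and 4.95 CPM in GiWi libraries (log2 fold change 5.00 ± 0.09 SE, edgeR adjusted p = 1.32e-05). LRRC32, which anchors latent TGF-beta to the cell surface, measured 215, 218 and 202 CPM in YAPi with Activin libraries, against 57.6 and 61.3 CPM in GiWi libraries (log2 fold change 1.83 ± 0.07 SE, edgeR adjusted p = 3.92e-05). Both rose in all 3 libraries, CHRDL2 over a low GiWi level. AMHR2, the type II receptor of anti-Müllerian hormone, measured 4.23, 3.62 and 3.83 CPM in YAPi with Activin libraries, against 23.6 and 25.8 CPM in GiWi libraries (log2 fold change -2.66 ± 0.10 SE, edgeR adjusted p = 3.93e-05). SOSTDC1, a secreted antagonist of BMP and Wnt ligands, measured 10.6, 10.8 and 12.5 CPM in YAPi with Activin libraries, against 72.5 and 64.9 CPM in GiWi libraries (log2 fold change -2.61 ± 0.10 SE, edgeR adjusted p = 4.05e-05). Both of these fell. TLL1, a protease of the BMP1 family named after its values were seen, measured 2.34, 2.40 and 1.68 CPM in YAPi with Activin libraries, against 27.5 and 28.7 CPM in GiWi libraries (log2 fold change -3.71 ± 0.15 SE, edgeR adjusted p = 5.16e-05). TLL1 thus moved opposite to BMP1, as CHRDL2 did to CHRDL1, while TLL2, the other protease of the BMP1 family, rose like BMP1 (log2 fold change 1.25 ± 0.39 SE, edgeR adjusted p = 0.0372).

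Most of the listed TGF-beta targets rose, and the listed BMP targets moved in both directions. Of 15 TGF-beta response genes, 13 rose (86.7%, against 30.2% of all genes) and 2 fell (13.3%, against 26.9%), with a median log2 fold change of 1.18. The 2 that fell were POSTN and ELN. These shares depend on which targets were listed: SMAD7 and SNAI1, which the pathway also induces, are grouped elsewhere here and fell. CDKN2B, a cell cycle inhibitor induced by TGF-beta, measured 213, 219 and 216 CPM in YAPi with Activin libraries, against 52.8 and 52.9 CPM in GiWi libraries (log2 fold change 2.03 ± 0.05 SE, edgeR adjusted p = 2.10e-05). It was far higher in every YAPi with Activin library. TGFBI, a matrix protein named for its induction, measured 1647, 1715 and 1626 CPM in YAPi with Activin libraries, against 371 and 391 CPM in GiWi libraries (log2 fold change 2.13 ± 0.06 SE, edgeR adjusted p = 2.29e-05). CDKN1A, another cell cycle inhibitor, measured 339.6, 359 and 323 CPM in YAPi with Activin libraries, against 76.3 and 81.9 CPM in GiWi libraries (log2 fold change 2.11 ± 0.07 SE, edgeR adjusted p = 3.66e-05). The libraries within a group were close in all 3 genes. This list shares 3 genes with the stromal markers (COL1A1, COL3A1 and POSTN) and 2 with the smooth muscle markers (ACTA2 and TAGLN), its CTGF and CYR61 are also known YAP targets, and the summed stromal markers were higher with YAPi and Activin. Of 11 BMP response genes, 3 were called higher (27.3%, near the 30.2% of all genes), 5 lower (45.5%, against 26.9%) and 3 did not pass (median -0.41), and 1 of the 11, NKX2-5, is also a cardiomyocyte marker.

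Among the BMP response genes, ATOH8, which BMP signals induce in endothelial and liver cells, measured 5.08, 5.19 and 6.53 CPM in YAPi with Activin libraries, against 22.5 and 25.7 CPM in GiWi libraries (log2 fold change -2.10 ± 0.13 SE, edgeR adjusted p = 0.000181). GATA4, a cardiac transcription factor, measured 72.1, 73.2 and 54.6 CPM in YAPi with Activin libraries, against 213 and 229 CPM in GiWi libraries (log2 fold change -1.73 ± 0.14 SE, edgeR adjusted p = 0.000353). TBX2, a repressor of chamber identity in the atrioventricular canal, measured 26.3, 28.2 and 28.1 CPM in YAPi with Activin libraries, against 54.2 and 57.4 CPM in GiWi libraries (log2 fold change -1.02 ± 0.06 SE, edgeR adjusted p = 0.000152). These 3 fell in every YAPi with Activin library. RUNX2, a bone transcription factor, measured 9.73, 8.51 and 9.45 CPM in YAPi with Activin libraries, against 1.64 and 1.58 CPM in GiWi libraries (log2 fold change 2.51 ± 0.12 SE, edgeR adjusted p = 8.21e-05), and MSX2 was also called higher. DLX5, the other gene counted as higher, reached the filter on low counts in the YAPi with Activin libraries alone, so its call follows from how it was kept.

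**Figure D5:**
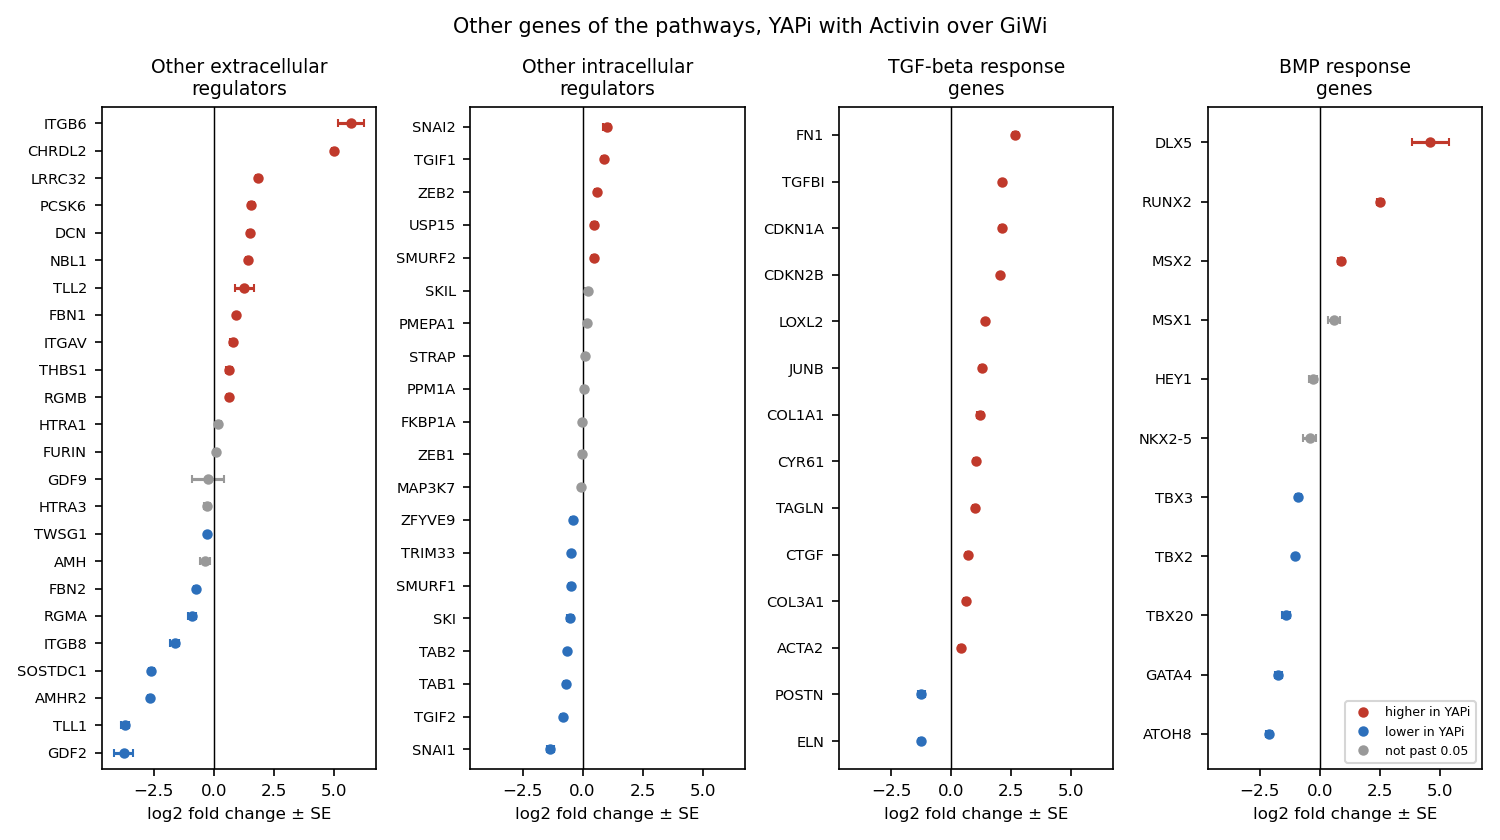
Log2 fold change of YAPi with Activin over GiWi (x axes, bars are ± SE from edgeR) for tested genes of 4 lists of other pathway genes, sorted within each list; red is higher and blue lower at an adjusted p under 0.05, and grey did not pass. In the third panel the TGF-beta response genes drawn lie to the right of 0, but for the 2 that fell (POSTN and ELN).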

How the data were processed

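Messenger RNA of 5 libraries was sequenced on a HiSeq instrument after a stranded kit, per the labels' protocols. Named in the submitters' processing notes, without roles, are the build hg19 and the tools STAR 2.5.1, HOMER, FastQC 0.11.5 and edgeR 3.16.1. The authors deposited exon counts per gene, taken here for expected counts (34.6% of values are not whole) and rounded before testing. They also deposited FPKM values, which for 21 members are listed with another transcript of the gene and were used as given. How strand was counted was not given in the sources used here, so genes that overlap, such as GDF1 with CERS1 or BMP6 with TXNDC5 over 479 bases, may share reads.

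Groups come from the labels. The test was edgeR 4.0.16 (quasi-likelihood, R 4.3.3) with TMM factors and the filterByExpr filter (minimum count 10, minimum total 15), fitted on all genes with Benjamini-Hochberg adjustment at 0.05. The SE is the fold change over the root of the F statistic. Members, lists and tests were chosen with earlier results of these data known. Every member is accounted for; of the other lists, up to 4 genes with the smallest p are named. Some genes are not reported here and remain in the counts. As alternatives, the fit was repeated with DESeq2 1.42.0, with limma 3.58.1 on log2(FPKM + 1) and log2(FPKM + 0.1), with RLE factors or library size alone, without a filter or with a stricter one (1 CPM in 2 libraries), without each library, and with a block for replicate number. The edgeR step was tested on simulated data. Replicates differed by more than sampling noise: chi-square per degree of freedom (genes with 20 counts or more in a pair) was 2.13 for YAPi replicates 1 and 2, 53.5 and 48.4 for each with replicate 3, and 5.89 for the GiWi pair. Figures were drawn with matplotlib 3.10.9.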

Additional observations from a re-analysis of the deposited data

How the results depend on the processing

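Of the 39 called members, 30 kept direction and call in all 13 alternatives. The call was lost at least once for 9: BMP7, BMP8A, ACVR1, TGFBR1, SMAD1, SMAD3, SMAD5, ID3 and ID4. The stricter filter leaves BMP8A out. Of the 12 uncalled members, 6 (BMP5, BMPR1B, BMPR2, SMAD2, CHRD and ID1) gained a call in the same direction at least once. On the log2 scale, uncalled members near 0 changed sign. BMP4 (0.00175) turned to -0.194 (library size alone), -0.00352 (no filter), -0.144 (log2(FPKM + 1)), -0.148 (log2(FPKM + 0.1)) and -0.129 (replicate block), and ran from -0.127 to 0.0815 with a library left out. LTBP3 (0.00102) turned to -0.194 (library size alone), -0.00419 (no filter), -0.143 (log2(FPKM + 1)), -0.146 (log2(FPKM + 0.1)) and -0.108 (replicate block), and ran from -0.107 to 0.0736 with a library left out. LTBP1 (-0.00213) turned to 0.000111 (RLE factors), 0.00925 (the stricter filter), 0.000144 (DESeq2) and 0.0593 (replicate block), and ran from -0.0349 to 0.0609 with a library left out. GDF11 (0.0614) turned to -0.131 (library size alone), -0.0678 (log2(FPKM + 1)) and -0.0798 (log2(FPKM + 0.1)). ENG (-0.0348) turned to 0.0297 (replicate block), and ran from -0.0961 to 0.0316 with a library left out. ACVRL1 (-0.137) ran from -0.283 to 0.0151 with a library left out. Over the libraries left out in turn, calls ran from 5909 (without GiWi replicate 2; 6070 without GiWi replicate 1) to 13115 (without YAPi replicate 3) for all genes, against 10065, and from 31 to 44 for members, against 39. With 1 GiWi library left, it is assumed to vary like the others. On log2(FPKM + 1), changes of low genes are understated, as for BMP10 (-0.86), BMP3 (-2.19), BMP8B (0.40), CHRDL1 (-0.65), TLL1 (-1.83) and RUNX2 (0.92). Counts of calls in the 4 other lists stayed within 1.5 times, and the genes of those lists given with CPM per library kept direction and call throughout. Those genes were picked by smallest p or after their values were seen, so they do not show how stable the lists are. All 23 share differences kept their sign with CPM, and 3 of 115 changed sign with a library left out. Of 138 share alternatives, 11 moved by more than the spread between replicates, all of them with CPM, which is not per length. With the replicate number as a block, 13576 genes and 15 higher and 30 lower members passed. BMP4 and LTBP3 passed there as lower (adjusted p = 0.00572 and 0.00649). YAPi replicate 3 has no GiWi partner and drops out of that contrast. Deviations of same-numbered libraries from their group means correlated at 0.172 and -0.11. With 2 GiWi libraries these deviations mirror each other, so the values cannot show whether same-numbered libraries were paired. Causes were not tested. Depth was alike across libraries and limits BMP8A, BMP8B and GDF3.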

Other observations

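Of 20 intracellular regulators of the pathway tested, 5 rose (25%, against 30.2% of all genes), 8 fell (40.0%, against 26.9%) and 7 did not pass; the 65.0% called are near the 57.1% of all genes. The list had a median log2 fold change of -0.01 and a range from -1.36 to 1.00. TGIF1, a corepressor of SMAD2 and SMAD3, measured 46.6, 49.97 and 51.8 CPM in YAPi with Activin libraries, against 27.3 and 25.8 CPM in GiWi libraries (log2 fold change 0.90 ± 0.07 SE, edgeR adjusted p = 0.000353). TAB1 and TAB2 are adaptors of the kinase TAK1, which carries signals beside the SMADs. TAB2 measured 109, 108 and 107 CPM in YAPi with Activin libraries, against 170.0 and 168 CPM in GiWi libraries (log2 fold change -0.65 ± 0.05 SE, edgeR adjusted p = 0.000276), and TAB1 35.7, 33.6 and 37.2 CPM in YAPi with Activin libraries, against 56.9 and 57.7 CPM in GiWi libraries (log2 fold change -0.69 ± 0.06 SE, edgeR adjusted p = 0.000562). SNAI1, a repressor of epithelial genes that TGF-beta induces, measured 4.63, 4.89 and 6.13 CPM in YAPi with Activin libraries, against 12.6 and 14.1 CPM in GiWi libraries (log2 fold change -1.35 ± 0.14 SE, edgeR adjusted p = 0.000893), while SNAI2 rose (log2 fold change 1.00 ± 0.15 SE, edgeR adjusted p = 0.00282) and was named after its value was seen. The groups did not overlap in any of these 5 genes, which were picked by p or after the value was seen. They did not overlap in 16 of the 20 genes of the list, or in 75.8% of all genes.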
